A study of Mus musculus with 2 samples.

Results

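The chemokines Cxcl9, Cxcl10, Cxcl11, Ccl5, Ccl3, Ccl4, Ccl22 and Ccl17, which attract lymphocytes and dendritic cells, were followed by gene symbol in single cells of mouse liver. Of these 8 genes, 7 had a row among the 31053 gene rows of the count table. Cxcl11, a polymorphic pseudogene in the GENCODE annotation (chromosome 5, 92359544 to 92365485, minus strand, GRCm38), had none. The livers came from 3 female BL6 mice, 6 to 8 weeks old when plasmid was injected and killed on day 6. Plasmid was given by hydrodynamic injection, in which a large volume pushed quickly into the tail vein carries DNA into some hepatocytes. All mice received a transposon with mVenus, a yellow fluorescent protein, and NRAS under the strong CAGGS promoter. In 2 mice it was oncogenic NRAS(G12V), and in 1 control mouse it was NRAS(G12V/D38A), in which a further change in the effector loop blocks signalling, so no mouse lacked a transgene. Cells of each mouse were marked with a hashtag, an antibody that carries a DNA barcode, then sorted live for mVenus, pooled and run together.

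Chemokines are small secreted proteins that bind receptors on passing leukocytes and guide them into tissue. CXCL9, CXCL10 and CXCL11 are classical interferon gamma-induced ligands of CXCR3, a receptor of activated T cells and natural killer cells. CCL3, CCL4 and CCL5 are made by many activated leukocytes, and CCL17 and CCL22, ligands of CCR4, are typical products of dendritic cells. In the liver such signals are known for drawing lymphocytes to damaged or senescent hepatocytes.

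Cxcl9 (chromosome 5, 92321347 to 92328079) and Cxcl10 (chromosome 5, 92346638 to 92348889) lie in 1 cluster on the minus strand. The 250 bases before their start sites are shown because interferon gamma and NF-kappa-B are the textbook inducers of both genes, and because the genes that act with these inducers are compared with them below. RefSeq promoters on GRCm38.p6 were found for 5 of the 8 genes. Sequences run 5′ to 3′ along the minus strand, and capitals mark matches to an interferon-stimulated response element (GAAA, any 2 bases, then GAAA) and to NF-kappa-B sites (GGGA, any 2 bases, then TTCC, or GGGANTTCC).
Cxcl9, chr5:92328080-92328329: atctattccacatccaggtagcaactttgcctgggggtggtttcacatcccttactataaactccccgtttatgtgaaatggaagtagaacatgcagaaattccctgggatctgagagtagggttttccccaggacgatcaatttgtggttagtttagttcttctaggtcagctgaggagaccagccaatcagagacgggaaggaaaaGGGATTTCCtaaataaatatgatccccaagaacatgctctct
Cxcl10, chr5:92348890-92349139: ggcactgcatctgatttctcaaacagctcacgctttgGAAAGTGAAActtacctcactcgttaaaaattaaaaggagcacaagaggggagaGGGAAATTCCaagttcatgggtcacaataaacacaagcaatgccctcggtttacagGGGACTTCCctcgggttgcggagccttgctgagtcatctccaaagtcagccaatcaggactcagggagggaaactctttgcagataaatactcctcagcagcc
Cxcl10 held the response element GAAAGTGAAA from 213 to 204 bases before the start site. It also held GGGAAATTCC from 159 to 150 bases and GGGACTTCC from 103 to 95 bases before it. Cxcl9 held 1 match, GGGATTTCC, from 42 to 34 bases before the start site. Among 32817 promoters of this length, 2.97% held the response element, 1.21% the longer and 1.43% the shorter NF-kappa-B form on either strand. No 2 of the matches overlapped. The interferon gamma-activated site TTCNNNGAA, held by 7.01% of promoters, matched in Ccl17 (TTCTTTGAA, 99 to 91 bases before the start site) and in none of the windows of Cxcl9, Cxcl10, Ccl22 and Ccl3. These are matches of letters, chosen after the windows had been seen, and not measured binding sites.

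The gene expression library held 142080194 UMIs (unique molecules) in 13151 barcodes, 13141 of which were also in the hashtag library. After filters, 10220 barcodes remained. Hepatocytes were the 8510 barcodes in which Alb, Apoa1, Apoa2, Ttr and Fgb made up at least 1% of gene UMIs, and 71.8% of them carried no callable hashtag. Hashtags 1, 2 and 3 marked 456, 1400 and 422 hepatocytes, with medians of 10170, 40143 and 2393.5 UMIs. The other classes had under 1% of UMIs from those 5 genes, at least 3 of 10 markers of their type and at least 2 more than the next class. Dendritic barcodes were gated on the larger of their resting and mature marker counts. They were called mature with at least 3 mature markers and a Ccr7 UMI, and resting otherwise. The resting class can therefore hold barcodes with mature markers, which summed to 652 CPM there and 4705.2 CPM in the mature class. The deposited table gives hashtag 1 to the D38A mouse and hashtags 2 and 3 to the G12V mice, whereas the study's methods give hashtag 3 to the D38A mouse, so mice are named by hashtag below. Levels are CPM, that is UMIs per 1000000 gene UMIs of a sum of barcodes, and square brackets hold exact Poisson 95% intervals, which cover counting error only. Hepatocyte barcodes that also held at least 3 markers of another class are called mixed here. The labels call the cells hepatocytes. The 5 hepatocyte genes summed to 73293.1 CPM in the hepatocyte class against 2636.7 to 5493.9 CPM in the others, a gap that the 1% gate set. Each other class held UMIs of all 10 of its own markers, which had also gated it. These values therefore describe the gates and do not check them. Mixed barcodes made up 28.5%, 15.9% and 53.6% of hepatocytes of hashtags 1, 2 and 3, and 1.42% of those with no hashtag.

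The first question was which cells held each chemokine. Cxcl9 was highest in resting dendritic cells, Cxcl10 in macrophages and endothelial cells, Ccl5 in T and NK cells and in mature dendritic cells, Ccl3 in macrophages, Ccl4 in macrophages and plasmacytoid dendritic cells, and Ccl22 and Ccl17 in mature dendritic cells. UMI sums per mouse and class were compared with edgeR's quasi-likelihood test, with the mouse as a block and Benjamini-Hochberg adjustment over 13813 genes. All contrasts with hepatocytes share the same hepatocyte sums.

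**Figure D1:**
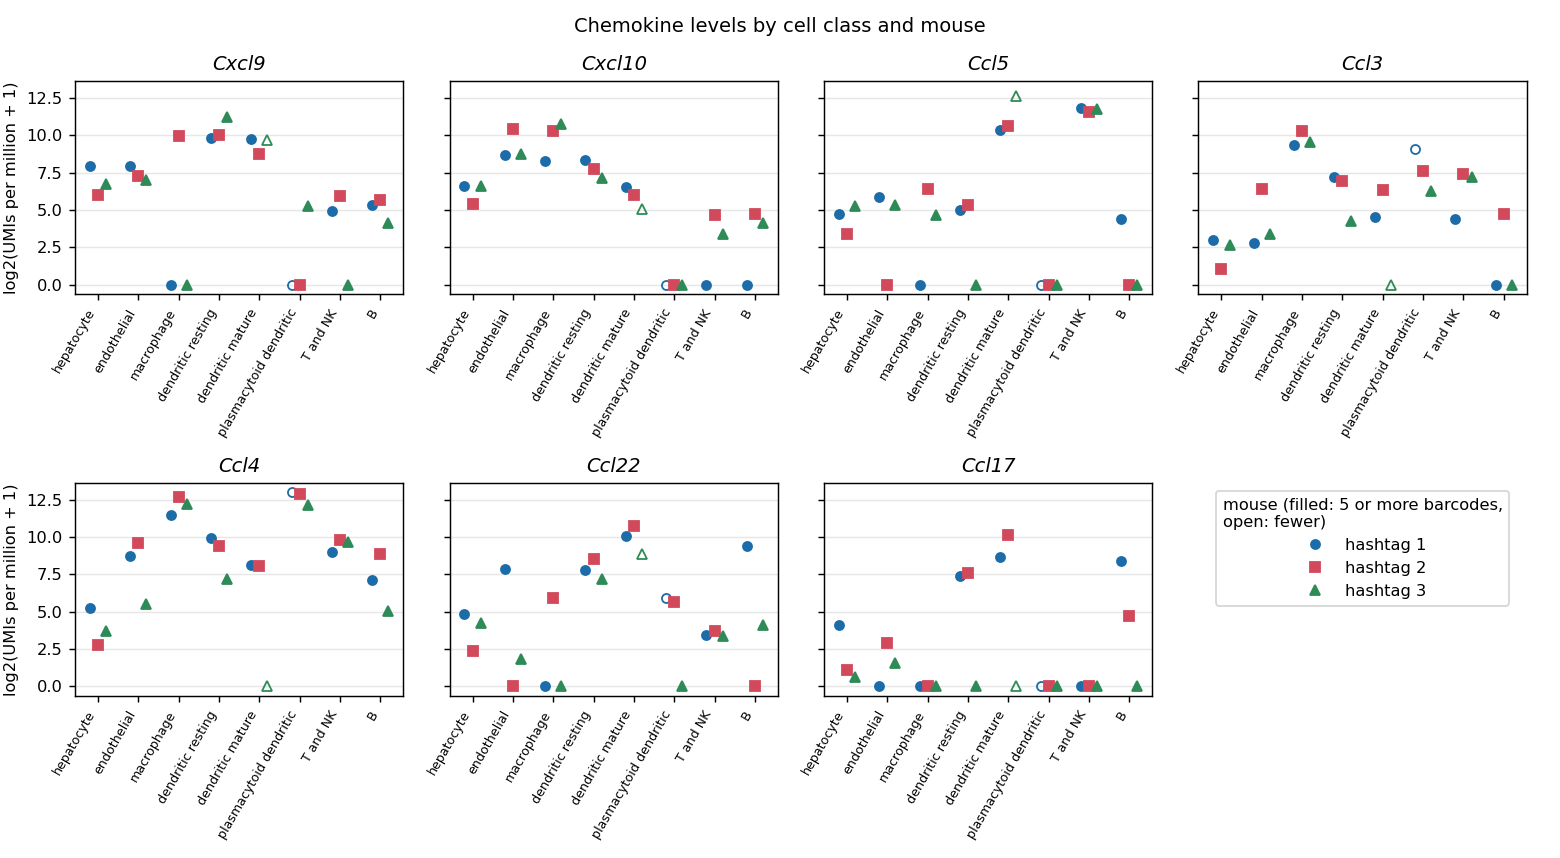
Level of each chemokine as log2(CPM + 1) in each cell class, with 1 point per mouse (hashtags 1, 2 and 3), open where the sum held fewer than 5 barcodes. Cxcl9 reached 904 to 2380.0 CPM in resting dendritic cells, Ccl5 3084.2 to 3729.9 CPM in T and NK cells, and Ccl4 2835.5 CPM or more in macrophages.

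Cxcl9 stood at 904, 1065.1 and 2380.0 CPM in resting dendritic cells of hashtags 1, 2 and 3. The sum of hashtag 3 had 6 barcodes, and 130 of its 133 Cxcl9 UMIs came from 1 of them. Mature dendritic cells followed with 884, 425 and 821 CPM, then hepatocytes with 248, 63.8 and 108 CPM and endothelial cells with 248, 154 and 130 CPM. The levels of hepatocytes and endothelial cells overlapped, and the test did not separate them (log2 difference −0.28 ± 0.691 SE, adjusted p = 0.807, edgeR). Macrophages held Cxcl9 in hashtag 2 only (996 CPM, 90 of 116 UMIs in 1 barcode). B cells, T and NK cells and plasmacytoid dendritic cells were at 0.0 to 60.2 CPM. Against hepatocytes, Cxcl9 was higher in resting dendritic cells (log2 fold change 3.28 ± 0.741, adjusted p = 0.000695, 3 of 3 mice) and mature dendritic cells (2.25 ± 0.758, adjusted p = 0.0235, 2 of 2 mice), and lower in T and NK cells (−2.84 ± 0.981, adjusted p = 0.0392, 3 of 3 mice). The last direction turned when barcodes with up to 5% hepatocyte genes were admitted to the T and NK class (2.00, adjusted p = 0.204). The call in mature dendritic cells was lost with DESeq2 (adjusted p = 0.199).

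Cxcl10 showed a different order. In endothelial cells, gated on sinusoidal markers such as Stab2 and Clec4g, it reached 410, 1409.9 and 437 CPM in hashtags 1, 2 and 3. In macrophages it reached 305, 1270.6 and 1730.4 CPM. Resting dendritic cells had 319, 212 and 143 CPM, hepatocytes 95.5, 40.9 and 94.9 CPM, and mature dendritic cells 94.3, 63.9 and 32.8 CPM. Endothelial cells and macrophages thus overlapped at the top, and hepatocytes and mature dendritic cells overlapped below them. Relative to hepatocytes Cxcl10 was higher in endothelial cells by 2.50 ± 0.529 on the log2 scale (adjusted p = 0.000644) and in macrophages by 3.10 ± 0.548 (adjusted p = 8.97e-05), each in 3 of 3 mice and under every alternative run for these contrasts. It was also higher in resting dendritic cells (1.60 ± 0.514, adjusted p = 0.0149, 3 of 3 mice), a call lost without hashtag 1 (1.32, adjusted p = 0.13). Cxcl10 was lower in T and NK cells (−3.38 ± 0.892, adjusted p = 0.00636) and in B cells (−3.30 ± 1.01, adjusted p = 0.0259), in 3 of 3 mice each. The T and NK value was 0.30 (adjusted p = 0.814) with the wider hepatocyte limit, and the B cell call was lost without hashtag 1 (−2.49, adjusted p = 0.248).

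Ccl5, which T cells and NK cells are known to store and release, had 3729.9 CPM [3363.4 to 4125.6] in T and NK cells of hashtag 1, where 217 of 378 UMIs lay in 1 barcode. Hashtags 2 and 3 had 3084.2 and 3478.6 CPM in this class, so the 3 mice were close to each other. Mature dendritic cells held 1316.0 and 1585.9 CPM in hashtags 1 and 2 and 6368.8 CPM in the 4 barcodes of hashtag 3. All other classes were at 85.9 CPM or less in every mouse. Resting dendritic cells were among these, at 31.5, 40.0 and 0.0 CPM, although they share a lineage with mature dendritic cells. Mature dendritic cells exceeded resting ones by 5.67 ± 0.653 on the log2 scale (adjusted p = 1.36e-06, 2 of 2 mice), with values of 4.16 to 6.68 over the alternatives. Ccl5 was the 1 chemokine of the 7 called in that contrast, in which 4.01% of all genes were called (2.61% higher and 1.4% lower). Ccl22 was at 1058.9 and 1718.5 CPM in mature against 223 and 367 CPM in resting dendritic cells of hashtags 1 and 2, and Ccl17 at 398 and 1125.9 against 165 and 196 CPM. Their differences of 2.37 ± 0.875 (adjusted p = 0.15) and 2.44 ± 0.762 (adjusted p = 0.0724) missed the threshold. Without hashtag 3, which has resting but too few mature barcodes, the differences were 2.34 (adjusted p = 1.28e-07) and 2.32 (adjusted p = 1.45e-07).

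Ccl4 and Ccl3, the macrophage inflammatory proteins 1 beta and 1 alpha, were both high in macrophages. In macrophages Ccl4 had 2835.5, 6567.6 and 4902.7 CPM and Ccl3 had 664, 1287.8 and 745 CPM in hashtags 1, 2 and 3, from 9, 18 and 7 barcodes. In plasmacytoid dendritic cells Ccl4 had 8208.5, 7490.1 and 4482.0 CPM, from 4, 5 and 6 barcodes, and thus overlapped with macrophages. In macrophages Ccl4 exceeded hepatocytes by 7.52 ± 0.772 (adjusted p = 7.57e-09) and Ccl3 by 6.89 ± 0.767 (adjusted p = 3.29e-08), in 3 of 3 mice. Ccl4 also exceeded hepatocytes in plasmacytoid dendritic cells (7.38 ± 0.796, adjusted p = 5.03e-08, 2 of 2 mice), where Ccl4 was the 1 member of 7 called and 7.45% of all genes were (2.37% higher, 5.07% lower). The Ccl4 call in endothelial cells (3.52 ± 0.664, adjusted p = 0.000185) rested on few barcodes, since 111 of 119 UMIs of hashtag 2 lay in 1 of them, and it was lost when every barcode was thinned to 1000 UMIs (1.25, adjusted p = 0.157).

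Counted by class, 6 of the 7 measured chemokines were higher in resting dendritic cells than in hepatocytes, with Ccl5 the exception (0.68 ± 0.574, adjusted p = 0.368), beside 13.9% of all genes higher and 21.8% lower (35.7% called). Mature dendritic cells also had 6 higher, with Cxcl10 the exception (0.25 ± 0.569, adjusted p = 0.775), beside 12.7% higher and 16.9% lower (29.6% called). Macrophages had 3 higher (Cxcl10, Ccl3 and Ccl4), and 0 lower, beside 6.35% and 10.1% of all genes (16.5% called). Endothelial cells had 2 higher (Cxcl10 and Ccl4) and 0 lower, beside 13% and 12.5% (25.5% called). T and NK cells had Ccl5, Ccl4 and Ccl3 higher, beside 6.7% of genes, and Cxcl9 and Cxcl10 lower, beside 12.1% (18.8% called). B cells had Ccl4 and Ccl17 higher, beside 3.45%, and Cxcl10 lower, beside 10.0% (13.5% called). All 17 Ccl17 UMIs of B cells in hashtag 1 lay in 1 barcode, and the call was lost without hashtag 1 (2.95, adjusted p = 0.489). The B cell call of Ccl4 was lost without hashtag 2 (1.22, adjusted p = 0.315). With DESeq2 the calls of Ccl22 and Ccl17 in resting dendritic cells had adjusted p = 0.0673 and 0.062. The counts depended on the hepatocyte barcodes used. Without mixed barcodes 7 chemokines were higher in resting and 6 in mature dendritic cells, 6 in endothelial cells and 5 in macrophages, and with low Cd74 alone endothelial cells had 5. Counts do not rank levels, since Cxcl10, Ccl3 and Ccl4 had more CPM in macrophages over all barcodes (1108.4, 1019.6 and 5271.0) than in resting (249, 127 and 763) or mature dendritic cells (75.9, 55.2 and 268).

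Cxcr3, the receptor of Cxcl9 and Cxcl10, was higher in T and NK cells (6.13 ± 0.783, adjusted p = 1.06e-06) and in resting dendritic cells (5.89 ± 0.656, adjusted p = 6.69e-08) than in hepatocytes, in 3 of 3 mice. Mature dendritic cells had less Cxcr3 than resting ones (−4.79 ± 0.864, adjusted p = 0.000879), in 2 of 2 mice. Ifng, which encodes interferon gamma, was higher in T and NK cells than in hepatocytes by 8.12 ± 0.582 on the log2 scale (adjusted p = 2.16e-10, 3 of 3 mice). All 5 genes of atypical receptors and chemokine processing were higher in endothelial cells, among them Ackr1 (5.85 ± 1.01, adjusted p = 0.00018), which binds chemokines without signalling, and Dpp4 (2.73 ± 0.505, adjusted p = 0.000152), a peptidase that trims CXCL10. In mature against resting dendritic cells, Relb (2.73 ± 0.491, adjusted p = 0.00068) and Nfkb2 (2.1 ± 0.488, adjusted p = 0.00872), the partners of the alternative NF-kappa-B pathway, and Irf1 (1.95 ± 0.433, adjusted p = 0.00579) were higher along with Ccl5.

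Hepatocytes were then examined mouse by mouse. Cxcl9 was at 248 CPM [239 to 258] for hashtag 1 and 63.8 CPM [61.7 to 66.0] for hashtag 2. It was at 108 CPM [93.4 to 124] for hashtag 3 and at 102 CPM [99.3 to 105] among barcodes that had no hashtag. Cxcl10 was at 95.5, 40.9, 94.9 and 79.4 CPM in the same order, and Ccl5 at 25.2, 9.51, 37.2 and 4.96 CPM. Hashtag 2 was the lowest of the 3 mice for each of these genes. With the deposited pairing the D38A mouse (hashtag 1) had more Cxcl9 than either G12V mouse, and with the methods' pairing the D38A mouse (hashtag 3) lay between them. G12V was not tested against D38A, because the sources disagree on which hashtag marks the 1 control mouse. Without mixed barcodes Cxcl9 was at 237, 49.9 and 64.6 CPM in hashtags 1, 2 and 3, whereas Cxcl10 of hashtag 3 came to 9.23 CPM and Ccl5 to 6.41, 4.14 and 9.23 CPM. With hashtags called by a fixed rule (at least 10 hashtag UMIs, 80% of them from 1 tag) 1552, 485 and 184 hepatocytes were assigned and Cxcl9 was at 179, 44.4 and 116 CPM. Hepatocyte UMIs of hashtags 1 and 2 then came to 24344879 and 19973803, against 10550150 and 54045271 with the main calls. The mouse given to many hepatocytes thus depended on how hashtags were called. Counts of mice and the mouse block of the tests rest on the main calls.

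Most of these molecules lay in few hepatocytes. Of 8386 hepatocyte barcodes with a hashtag or called negative, 1134 (13.5%) held a Cxcl9 UMI, and 25 barcodes held 50% of all 10763 Cxcl9 UMIs. For Cxcl10, 669 barcodes (7.98%) held a UMI and 15 of them 50% of 6881 UMIs. For Ccl5, 267 barcodes (3.18%) held a UMI and 11 of them 50% of 1067. The richest barcodes held 701 Cxcl9, 734 Cxcl10 and 135 Ccl5 UMIs. After thinning to 2000 UMIs per barcode, 7.06% [6.44 to 7.73, exact binomial] of hepatocytes held Cxcl9, 3.22% [2.79 to 3.69] Cxcl10 and 1.09% [0.85 to 1.38] Ccl5. T and NK cells, which are not known as sources of the CXCR3 ligands, held Cxcl9 in 4.35% [0.906 to 12.2] and Cxcl10 in 4.35% of barcodes, with a median of 3242.0 UMIs against 3688.5 in hepatocytes. The hepatocyte share for Cxcl10 was no larger than the T and NK share, and that for Cxcl9 lay within its interval. Each T and NK share came from 3 barcodes. Over all barcodes, levels in hepatocytes and in T and NK cells were 97.5 and 27.5 CPM for Cxcl9 and 62.3 and 10.3 CPM for Cxcl10. Ccl5 was in 1.58% [0.582 to 3.4] of resting dendritic cells after thinning, an interval that held the hepatocyte share of 1.09%. How much of the hepatocyte shares was background RNA was not tested. By contrast, 36.3% of resting dendritic cells held Cxcl9, 28.1% of endothelial cells and 43.8% of macrophages held Cxcl10, 55.1% of T and NK cells and 38.5% of mature dendritic cells held Ccl5, and 71.3% of mature dendritic cells held Ccl22.

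**Figure D2:**
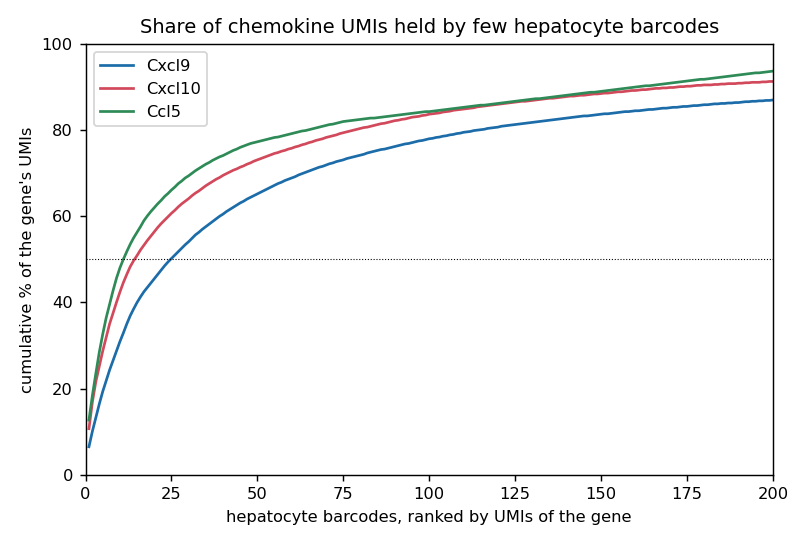
Cumulative percent of a gene's hepatocyte UMIs (vertical axis) against the number of hepatocyte barcodes ranked by UMIs of that gene (horizontal axis), for Cxcl9, Cxcl10 and Ccl5, with a dotted line at 50%. The lines cross 50% at 25, 15 and 11 barcodes.

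Cxcl9 and Cxcl10 were counted together in single hepatocytes, with no test. Among hepatocytes with at least 5000 UMIs, each thinned to 5000, both genes were found in 10 barcodes of hashtag 1, where independent detection would give 5.5. In hashtag 2 the counts were 14 and 4.7, in hashtag 3 they were 5 and 2.2, and with no hashtag 30 and 12.8. In each set most barcodes with 1 of the genes lacked the other, since 16.0% to 25.0% of those with Cxcl9 also had Cxcl10, and 20.3% to 45.5% of those with Cxcl10 also had Cxcl9.

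The chemokines of hepatocyte barcodes were then compared by Cd74, the invariant chain of MHC class II, which dendritic cells, B cells and macrophages carry in large amounts. Barcodes with under 100 CPM of Cd74 made up 74.3%, 91.1% and 78.4% of hepatocytes of hashtags 1, 2 and 3. In these, Ccl3, Ccl4, Ccl22 and Ccl17 were at 0.134 to 4.64 CPM over all sets. In barcodes with more Cd74, Ccl4 was at 217, 145 and 43.1 CPM and Ccl22 at 163, 101 and 86.3 CPM in hashtags 1, 2 and 3. Ccl17 was at 95, 29.0 and 0.0 CPM. Single barcodes held 149 of 260 Ccl4 UMIs in hashtag 2, and 11 of 15 Ccl4 and 27 of 30 Ccl22 UMIs in hashtag 3. Without them these levels were 64.5, 11.9 and 9.02 CPM. The 862 Cd74-high barcodes with no hashtag held Ccl4 at 4.87 CPM and Ccl22, Ccl17 and Ccl3 at 0.912 CPM or less. These 4 genes were thus near 0 where Cd74 was low, and also in Cd74-high barcodes with no hashtag. Cxcl9 was at 195, 58.4, 77.0 and 85.0 CPM in barcodes with low Cd74 and at 513, 222, 242 and 316 CPM in those with more, for hashtags 1, 2 and 3 and no hashtag. Cxcl10 was at 105, 40.0, 72.3 and 81.3 against 47.2, 66.4, 193 and 55.9 CPM. Ccl5 was at 14.2, 5.80, 41.8 and 3.84 against 80.2, 118, 17.3 and 18.9 CPM. Cxcl9 was thus higher beside Cd74 in every set, and Cxcl10 and Ccl5 in some sets only. In shallow barcodes 1 Cd74 UMI can pass the limit. Ptprc, the pan-leukocyte marker CD45, was at 67.1, 43.0 and 80.5 CPM in the Cd74-high sums of hashtags 1, 2 and 3 and at 0.304 CPM in that with no hashtag. Low and high barcodes were not tested against each other, since the limit was chosen after the data were seen.

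**Figure D3:**
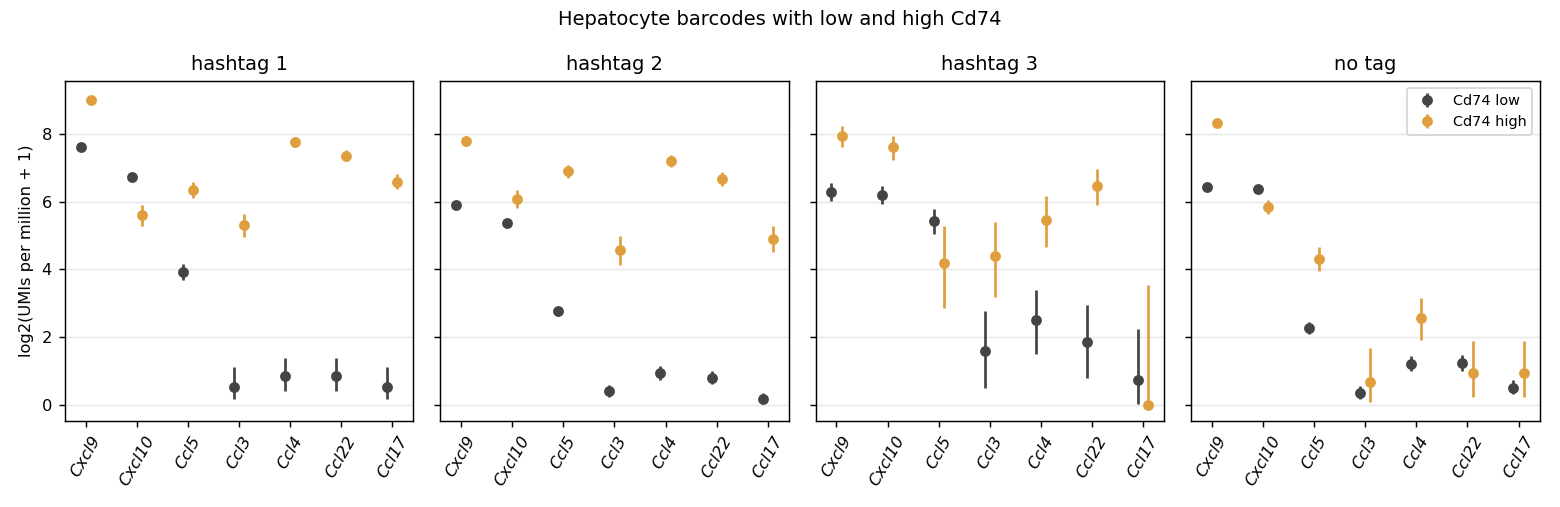
Levels of the 7 chemokines as log2(CPM + 1) with Poisson 95% intervals in hepatocyte barcodes with low (dark) and high (orange) Cd74, in hashtags 1, 2 and 3 and in barcodes with no hashtag. Cxcl9 and Cxcl10 were at 40.0 CPM or more in every low-Cd74 sum, and Ccl3, Ccl4, Ccl22 and Ccl17 were at 4.64 CPM or less.

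The next question was whether the chemokines followed the transgene. Hepatocytes with at least 5000 UMIs were binned by Nras CPM, a row that also takes up reads of the construct, into baseline (under 100), low (100 to 500), intermediate (500 to 2000) and high (2000 or more). This row does not tell NRAS(G12V) from NRAS(G12V/D38A), so the bins order the amount of Nras RNA and not of oncogenic signalling. Hashtags 1 and 2 alone had enough barcodes in the high bin for the fit. In the deposited table hashtag 1 is the D38A mouse, while in the study's methods both are G12V mice. The intermediate bin holds the D38A mouse under either pairing. Cxcl9 in the baseline, low, intermediate and high bins was at 275, 78.4, 339 and 382 CPM in hashtag 1. In hashtag 2 it was at 22.4, 62.9, 137 and 135 CPM, and in hashtag 3 at 85.3, 46.1, 608 and 48.1 CPM, the last from 3 barcodes, which were not in the fit. Hashtag 2 thus had its lowest value at baseline, and hashtags 1 and 3 had theirs in the low bin. Cxcl9 was higher in the high than in the baseline bin by 1.34 ± 0.444 on the log2 scale (adjusted p = 0.0437, edgeR with the mouse as block, 2 of 2 mice). It was the 1 of 7 chemokines called there, beside 18.1% of 12738 genes (7.92% higher and 10.2% lower). In the intermediate bin it was higher by 1.49 ± 0.428 (adjusted p = 0.0303, 3 of 3 mice), beside 11.1% of genes called (4.66% higher and 6.44% lower). Both calls rested on single barcodes, because without the richest chemokine barcode of each sum the differences were 0.93 (adjusted p = 0.145) and 0.49 (adjusted p = 0.543). The high-bin call was also lost without hashtag 2 (0.90, adjusted p = 0.0638) or hashtag 3 (1.28, adjusted p = 0.103), and the intermediate one without hashtag 3 (1.22, adjusted p = 0.156) or without mixed barcodes (0.56, adjusted p = 0.384). In barcodes thinned to 5000 UMIs, the share with Cxcl9 was 21.7% at baseline and 18.8% in the high bin in hashtag 1, and 6.36% and 9.0% in hashtag 2. The exact binomial intervals overlapped within each mouse, [15.4 to 29.1] with [7.21 to 36.4] and [4.62 to 8.5] with [4.2 to 16.4].

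Cxcl10 did not move one way. In hashtag 1 it was at 195, 29.2, 33.1 and 53.7 CPM from baseline to high Nras, and 431 of its 747 baseline UMIs were in 1 barcode. In hashtag 2 it was at 23.7, 37.5, 54.0 and 102 CPM, and in hashtag 3 at 57.5, 15.4, 763 and 19.2 CPM, with 54 of 59 intermediate UMIs in 1 barcode. The high against baseline difference was 0.22 ± 0.75 (2 SE interval −1.28 to 1.72, adjusted p = 0.903). Ccl5 was at 10.7, 56.8, 5.78 and 17.9 CPM in hashtag 1 and at 2.79, 7.03, 17.4 and 18.9 CPM in hashtag 2. The high against baseline difference of Ccl5 was 1.90 ± 0.65 (adjusted p = 0.0513, 2 of 2 mice), just outside the threshold. In hashtag 2, 135 of the 153 intermediate Ccl5 UMIs lay in 1 barcode, and the intermediate against baseline value went from 1.58 to −0.83 without the richest chemokine barcodes.

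**Figure D4:**
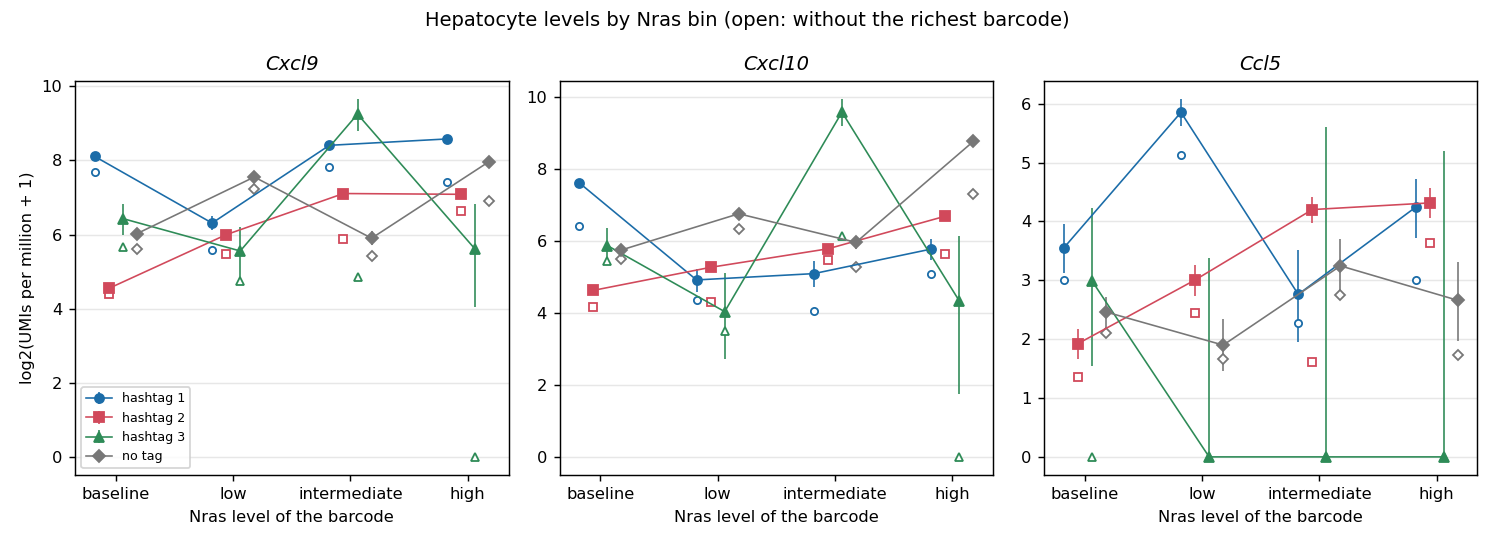
Levels of Cxcl9, Cxcl10 and Ccl5 as log2(CPM + 1) in hepatocytes by Nras bin, with Poisson 95% intervals, for hashtags 1, 2 and 3 and barcodes with no hashtag. Open symbols leave out the 1 barcode with the most UMIs of that gene, which takes hashtag 3 at intermediate Nras from 763 to 69.6 CPM for Cxcl10 and hashtag 2 from 17.4 to 2.06 CPM for Ccl5.

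At intermediate Nras 2 of the 7 chemokines, Ccl22 and Ccl4, were lower, beside 6.44% of all genes. Ccl22 was at 53.0, 3.22 and 48.7 CPM at baseline and 4.21, 1.02 and 0.0 CPM in the intermediate bin of hashtags 1, 2 and 3, lower by 2.96 ± 0.812 on the log2 scale (adjusted p = 0.0236, 3 of 3 mice). Ccl4 was at 56.6, 2.87 and 19.2 against 3.16, 2.61 and 0.0 CPM, lower by 2.14 ± 0.598 (adjusted p = 0.0266, 3 of 3 mice). At baseline in hashtag 3, 27 of 28 Ccl22 UMIs and all 11 Ccl4 UMIs lay in 1 barcode. In hashtag 2 the Ccl4 intervals overlapped, [2.25 to 3.6] at baseline with [1.65 to 3.91] in the intermediate bin. Cd74 went with Ccl22 and Ccl4, at 1453.2, 123 and 820 CPM at baseline and 201, 72.7 and 595 CPM in the intermediate bin. In hepatocytes with low Cd74 the Ccl22 difference was 0.55 (adjusted p = 0.788) and the Ccl4 difference −0.43 (adjusted p = 0.836). The Ccl4 call was lost without hashtag 1 (−0.64, adjusted p = 0.948) or hashtag 3 (−2.04, adjusted p = 0.0759), and the Ccl22 call without hashtag 3 (−2.79, adjusted p = 0.0662). In the high bin the values of Ccl22 (−1.81 ± 0.764, adjusted p = 0.118), Ccl17 (−2.25 ± 1.08, adjusted p = 0.179), Ccl4 (−0.64 ± 0.518, adjusted p = 0.465) and Ccl3 (−0.33 ± 0.74, adjusted p = 0.835) did not pass the test.

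Genes of the interferon gamma and NF-kappa-B pathways were read in the same bins, which do not tell the constructs apart. Both chains of the interferon gamma receptor were higher in the high bin, Ifngr1 by 1.34 ± 0.153 (adjusted p = 7.14e-06) and Ifngr2 by 0.86 ± 0.154 (adjusted p = 0.000571), in 2 of 2 mice. Of 21 tested interferon gamma targets 1 was higher, Ido1 (4.41 ± 0.765, adjusted p = 0.000434), a tryptophan-degrading enzyme, and 4 were lower, beside 7.92% and 10.2% of all genes (18.1% called), among them the immunoproteasome subunits Psmb9 (−0.74 ± 0.212, adjusted p = 0.0206) and Psmb8 (−0.51 ± 0.154, adjusted p = 0.0272). Their median was −0.04, beside −0.063 over all genes tested. Of 14 NF-kappa-B genes, Vcam1 (1.5 ± 0.23, adjusted p = 0.00013) and Nfkb2 (1.32 ± 0.278, adjusted p = 0.00226) were higher and 0 lower, beside 7.92% and 10.2% of all genes (18.1% called). Dpp4 was lower (−1.13 ± 0.201, adjusted p = 0.00052). Of the 5 hepatocyte genes of the gate, 3 were lower in the high bin, beside the same 10.2% of all genes lower.

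Lastly, hepatocytes with at least 5000 UMIs were split by whether a Cxcl9 or Cxcl10 UMI remained after thinning to 5000, which gave 75, 138 and 26 barcodes with and 215, 1088 and 76 without in hashtags 1, 2 and 3. The split used these chemokines, so their own change is no result. Interferon gamma targets were higher together in hepatocytes that carried the chemokines. Gbp2, a guanylate-binding protein of cell-autonomous defence, was at 66.6, 82.2 and 43.4 CPM with and 1.69, 0.935 and 5.32 CPM without a chemokine UMI in hashtags 1, 2 and 3, and the ranges of the groups did not overlap (log2 fold change 6.01 ± 0.245, adjusted p = 2.07e-13). Of 21 tested targets, 17 were higher and 0 lower, with a median of 1.94 beside −0.015 over all genes, and 2.45% of 12741 genes were higher (2.54% called). Serpina3g (3.93 ± 0.34), Ifi47 (2.00 ± 0.166) and Psmb9 (1.36 ± 0.133) were among them, each in 3 of 3 mice.

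Of the 22 listed targets in the table, 22, 22 and 16 were higher with the chemokines in hashtags 1, 2 and 3, and 21 of 22 in barcodes with no hashtag, which took no part in the test. The share of all genes that went the same way in each set was not counted. The upstream genes Irf1 (0.93 ± 0.144, adjusted p = 0.000244) and Socs1 (1.82 ± 0.444, adjusted p = 0.0239) were also higher. Of 14 NF-kappa-B genes 8 were higher, beside 2.45% of all genes, led by Icam1 (0.87 ± 0.139, adjusted p = 0.000356), an adhesion molecule for lymphocytes, and Rel (1.05 ± 0.178, adjusted p = 0.000798). Median Nras was 66.0, 100.7 and 0.0 CPM with and 97.4, 84.3 and 85.3 CPM without the chemokines, so it was higher with them in hashtag 2 and lower in hashtags 1 and 3. Median depth was 20834, 40528 and 6924 UMIs with and 28435, 43599.5 and 8006.5 without.

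**Figure D5:**
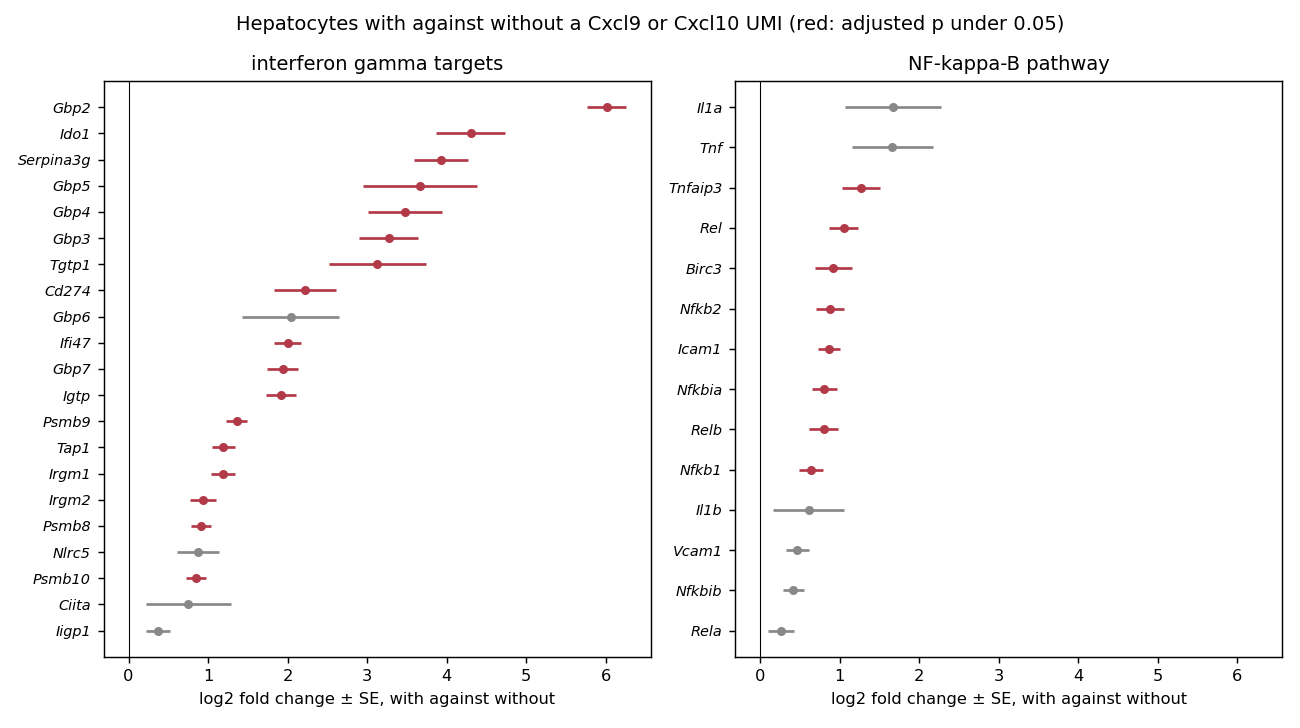
Log2 fold change ± SE of interferon gamma targets (left) and NF-kappa-B genes (right) in hepatocytes with against without a Cxcl9 or Cxcl10 UMI, red where the edgeR adjusted p passed 0.05. Of the targets 17 of 21 passed, with Gbp2 the largest at 6.01, and of the NF-kappa-B genes 8 of 14.

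Markers of other cells moved with this split, and the part of those cells in it was not tested beyond the values given here. All 10 endothelial gate genes were higher in barcodes with the chemokines (median 1.78), as were 1 of 6 tested macrophage genes (Clec4f, 4.19 ± 0.825, adjusted p = 0.00395, with all 22 UMIs of hashtag 2 in 1 barcode), 1 of 8 for resting dendritic cells (Batf3, 2.11 ± 0.366, adjusted p = 0.000957) and 2 of 9 for mature ones (Ccr7, 1.98 ± 0.185, adjusted p = 2.74e-07, and Serpinb6b, 1.12 ± 0.162, adjusted p = 0.000111). Of 5 tested stellate genes 1 was higher (Rgs5, 2.38 ± 0.577, adjusted p = 0.0228), and 0 of the 5 hepatocyte genes passed the test. Over all 12741 genes tested, 2.45% were higher and 0.0863% lower. Without mixed barcodes 0 of 7 tested endothelial genes passed the test (median −0.14), and 15 of 18 tested interferon gamma targets were higher (median 1.87). Mixed barcodes were defined in part by these same endothelial genes, so the filter itself took their UMIs out. The endothelial result without mixed barcodes therefore does not show where the interferon gamma targets came from. With low Cd74 alone 15 of 19 targets were higher and 10 of 10 endothelial genes still passed. Ccl5 was at 48.8, 39.9 and 19.3 CPM with and 15.0, 4.44 and 0.0 CPM without the chemokines (2.55 ± 0.233, adjusted p = 1.91e-07, 3 of 3 mice), and it was higher without mixed barcodes too (2.17, adjusted p = 3.36e-14). With hashtags called by the fixed rule the Ccl5 difference was 0.65 (adjusted p = 0.4). Ccl22 (2.51 ± 0.288, adjusted p = 5.09e-06) and Ccl4 (1.26 ± 0.235, adjusted p = 0.0021) were higher with the chemokines but came to −0.81 and −0.56 without mixed barcodes, with adjusted p = 1.0 for each. The Ccl4 call was also lost with DESeq2 and by the fixed rule (0.95, adjusted p = 0.0696). Ccl17 was higher in hashtags 1 and 2 and had no UMI in hashtag 3 (2.71 ± 0.391, adjusted p = 0.00013) and Ccl3 did not pass (0.65 ± 0.527, adjusted p = 0.962).

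Among called genes with at least 10 CPM in 1 sum and the same direction in all 3 mice, those with the largest rise in hepatocytes carrying Cxcl9 or Cxcl10 were Gbp2, Rsad2 (5.16 ± 0.394, adjusted p = 1.62e-08), Serpina3f, Ifit3b, Serpina3g, Ifit3 (3.82 ± 0.225, adjusted p = 2.15e-10), Gbp5, Gbp4, Mcam and Gbp3. Rsad2 and the Ifit genes are antiviral genes best known as targets of type I interferon. Lower genes numbered 11 of 12741 (0.0863%). They included Ptgs2, the prostaglandin synthase COX2, at 0.828, 1.48 and 0.0 CPM with and 12.2, 3.99 and 2.13 CPM without (−2.36 ± 0.451, adjusted p = 0.00267), and Dlk1, a hepatoblast marker, at 2.48, 11.6 and 19.3 against 11.4, 26.0 and 38.3 CPM (−1.34 ± 0.208, adjusted p = 0.000261). Both were lower in 3 of 3 mice. Ly6k, Irx3, Emp1, Onecut1, Tspan8, Sult2a1, Ly6d and Selenbp2 made up the rest of the 10 largest falls.

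Genes were ranked by how closely their log2(CPM + 1) followed a chemokine over 13 sums of mouse and class, among 11430 genes, and the first 3 are named. For Cxcl9 they were Rab32 (Pearson r = 0.947), Vdac2 (0.939) and Slc8b1 (0.918). For Cxcl10 they were Lamtor3 (0.955), Cpne3 (0.95) and Itpripl2 (0.947), and for Ccl5 Gtpbp1 (0.957), Gramd3 (0.949) and Supt4a (0.946). No gene was shared between these sets. Ccl3 was followed by Tomm34 (0.925), Hmgn2 (0.912) and Alkbh1 (0.907), and Ccl4 by Nfkbid (0.949), G3bp1 (0.936) and Evl (0.932). Ccl22 was followed by Adap1 (0.942), Pirb (0.938) and Ebi3 (0.937), and Ccl17 by Mab21l3 (0.967), Aldh1a2 (0.962) and Bcl2a1c (0.955). All sums came from 1 library and differed in depth, so these values are descriptions with no test.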

How the data were processed

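Single cells of 3 mouse livers were measured in 1 10x Genomics run with hashtag antibodies. The authors aligned reads to mm10 and deposited raw counts of UMIs per gene and barcode (Cell Ranger 3.0.2 in the file header, 2.1.1 in the submitters' notes), and hashtag UMI counts made with CITE-seq-Count, with all mice in 1 table. Barcodes with at least 500 genes, 1000 UMIs and under 20% mitochondrial UMIs were kept. Hashtags were called with HTODemux in Seurat 5.3.0 (quantile 0.99), and 271 doublets of hashtags were removed. No other doublet caller was run. UMI sums per mouse and class, of at least 5 barcodes, were tested with edgeR 4.0.16 (quasi-likelihood, TMM) in R 4.3.3, with the mouse as a block, over genes with at least 20 UMIs and an adjusted p threshold of 0.05. The SE given with edgeR values is the size of the log2 fold change divided by the square root of the F statistic. It was derived from the test and not estimated separately, so SE and 2 SE intervals are approximate. The pairing comes from the hashtag, since sums of 1 called hashtag are taken as 1 mouse. Nras and mVenus were left out of library totals. The chemokines and gene lists were chosen with earlier results of these data known. All chemokines, the 4 genes of each list with the smallest adjusted p, the 3 genes most like each chemokine and the 10 largest changes in each direction of the split by chemokine were named. Alternatives (DESeq2, other filters, thinning, each mouse left out) are given in the closing section. The fits were tested on data simulated with an assumed spread, for high Nras, mature dendritic cells against hepatocytes and the split. Of genes changed 2-fold, 3.03%, 0.0% and 2.02% were recovered, and of genes changed 4-fold, 43.4%, 29.0% and 43.4%, with 0 false calls. A missed threshold therefore does not show that a gene was unchanged. Depth was 142080194 UMIs, and intervals cover counting error only. The p-values rest on how differences within mice varied from mouse to mouse, estimated jointly over all classes or bins of a fit. They do not measure the spread of the 2 or 3 mice of 1 contrast alone. Results for some listed genes are not reported here.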

Additional observations from a re-analysis of the deposited data

Results flagged for a closer look

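Cxcl10 at intermediate against baseline Nras differed in direction between mice. The log2 ratio of CPM was -2.52 in hashtag 1, where 431 of 747 baseline UMIs lay in 1 barcode, and above 0 in hashtags 2 and 3. The difference between the mice was not tested.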

How the results depend on the processing

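Counts of called genes fell when each barcode was thinned, to 968 (high Nras), 669 (intermediate Nras), 213 (mature against resting dendritic), 204 (split by chemokine), 1726 (endothelial), 1002 (macrophage), 2049 (resting dendritic), 1845 (mature dendritic), 455 (plasmacytoid), 1435 (T and NK) and 1089 (B). Without mixed barcodes they were 1167 for mature against resting dendritic cells, 108 for the split, 5517 for endothelial and 1579 for plasmacytoid cells. Nras quartiles gave 64 at intermediate Nras, and a depth minimum of 2000 UMIs gave 492 for the split. Plasmacytoid cells had 1835 calls with DESeq2, 1694 with its size factors, 398 with hashtags by the fixed rule and 675 with up to 5% hepatocyte genes, and B cells 2819 with DESeq2. With 1 mouse left out, calls ran from 781 to 2827 (high Nras), 520 to 1732 (intermediate), 98 to 1282 (mature against resting), 155 to 314 (split), 1611 to 3133 (endothelial), 1181 to 2338 (macrophage), 2500 to 5756 (resting dendritic), 1295 to 5416 (mature dendritic), 539 to 918 (plasmacytoid), 1399 to 2410 (T and NK) and 699 to 1482 (B). Chemokines at 10 CPM or more in hepatocytes of every mouse numbered 2, but 5 by the fixed rule and 1 without mixed barcodes. The cause was not tested for any of these.

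Of the values for single chemokines, 553 kept their direction and side of the threshold, 46 lost the call, 44 gained one and 30 turned, 25 of these for Nras. At high Nras, Cxcl10 was at -0.12 (minimum of 10000 UMIs), -0.64 (without mixed barcodes), -0.27 (low Cd74) and -0.33 (without the top chemokine barcode), from -1.14 to 2.18 with 1 mouse left out. Ccl22 came to 0.15 without mixed barcodes and 0.47 at low Cd74. With 1 mouse left out Ccl17 ran from -5.36 to 2.52 and Ccl4 from -1.48 to 0.35. At intermediate Nras, Cxcl10 was at 0.84 (DESeq2), 0.03 (mitochondrial limit of 50%), 1.52 (thinned), 0.16 (minimum of 2000 UMIs) and 1.18 (quartiles), from -0.89 to 2.3 with 1 mouse left out. Ccl5 was at -0.66 (fixed rule), -0.03 (without mixed barcodes) and -0.83 (without the top barcode), from -1.02 to 2.38 with 1 mouse left out. Ccl22 was at 0.55 at low Cd74, Ccl3 at 0.2 and Ccl4 at 0.83 with quartiles, and Ccl17 ran from -5.47 to 0.46. In the split, Ccl22 came to -0.81 without mixed barcodes and Ccl4 to -0.56, or -0.32 at low Cd74. In T and NK cells with the wider hepatocyte limit Cxcl9 came to 2.0 and Cxcl10 to 0.3. The low Cd74 and top barcode settings were chosen after seeing the data. The mouse was a block in every fit, since sums of 1 called hashtag are taken as 1 mouse. Between genotypes, which were not tested, no paired analysis was possible because each mouse received 1 construct only. Without a filter on low counts adjusted p-values were far smaller, and the cause was not tested. Ccl17 in the split could not be fitted without mixed barcodes. Depth limits hashtag 3 most.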
